A study of Saccharomyces cerevisiae with 40 samples.

Results

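Messenger RNA of Saccharomyces cerevisiae fed an excess of valine, here Val, was compared with that of a control group, here Ctrl, gene by gene. These are 8 of the series' 40 libraries, 4 of Val and 4 of Ctrl, taken by the treatment named in the labels. The other 32 libraries come from cultures given isoleucine (Ile), alanine, glycine, threonine, phenylalanine, tryptophan, cysteine or methionine, with 4 libraries each. Every group has 1 library in each of the batches A to D, and the libraries are called here by those letters. The series, by its title, concerns how yeast keeps metabolite levels in balance and where that fails. All libraries, Ctrl included, are poly(A)-selected, directional complementary DNA from the total RNA of yeast cultures, and the labels give no strain, medium, dose or time of exposure.

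Yeast makes valine from pyruvate in the mitochondrion, on enzymes that it also uses for isoleucine, and the keto acid before valine is also the starting point of leucine and of pantothenate. Valine inhibits acetolactate synthase, the first enzyme of its own route, through a regulatory subunit, and the factor Leu3, which is switched on by an intermediate of leucine synthesis, controls several of the genes. Surplus valine loses its amino group to 2-oxoglutarate, is decarboxylated and leaves the cell as isobutanol or isobutyrate, a route named after Ehrlich.

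The deposited values are normalized reads per gene. Estimated depth was 7816870 to 13624589 reads in Val and 5905332 to 16698558 in Ctrl, and letter C was the deepest of both groups. Within Val, libraries correlated across genes at r = 0.981 to 0.992, and within Ctrl at 0.983 to 0.99, on the log2 scale. As a check on mating type, the pheromone receptor of mating type a, STE2, lay at 6102 to 7548 normalized reads in Val and 6826 to 7127 in Ctrl. The receptor of alpha cells, STE3, lay at 31.4 to 66.0 in Val and 11.9 to 25.2 in Ctrl. LEU2 and MET17 were not analysed here.

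Val and Ctrl differed in 329 of the 6103 genes tested (5.39%), of which 153 were higher than in Ctrl (2.51%) and 176 lower (2.88%). The test was limma's moderated test on log2(normalized reads + 1), with all 40 libraries in 1 fit, Benjamini-Hochberg adjustment and a threshold of 0.05. Most changes were small. The median log2 difference was 0.64 among the genes that rose and -0.51 among those that fell, and at least 2-fold changes numbered 33 upward (0.541%) and 24 downward (0.393%). The libraries of the groups did not overlap in 980 genes (16.1%), with Val above in 426 (6.98%) and below in 554 (9.08%). All 4 letters gave the same sign for 324 of the 329 genes (98.5%). At an unadjusted p under 0.05 there were 1092 genes (17.9%). Ctrl library C lay nearer to Val than the other Ctrl libraries did, for it was the nearest to Val among the 4 in 187 of the 329 genes, against 59 for A, 40 for B and 43 for D. The count was 352 without Ctrl C, 219 without Val A, 207 without Val C, 218 without Ctrl A, 207 without Ctrl D and 257 with letter C left out of every group, and 75 of the rises and 78 of the falls passed whichever of the 8 libraries was left out. With the batch letters as a replicate block it was 499, with 222 higher and 277 lower. With every library brought to the same total, all genes had a median of -0.05, against 0.002 as deposited, and the split was 114 higher and 283 lower. In RNA from whole cultures, fewer cells that express a gene and less RNA of it per cell cannot be told apart. P-values measure the spread between these libraries, which may be partly technical, as nothing beyond the batch letter is known of how replicates arose.

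**Figure D1:**
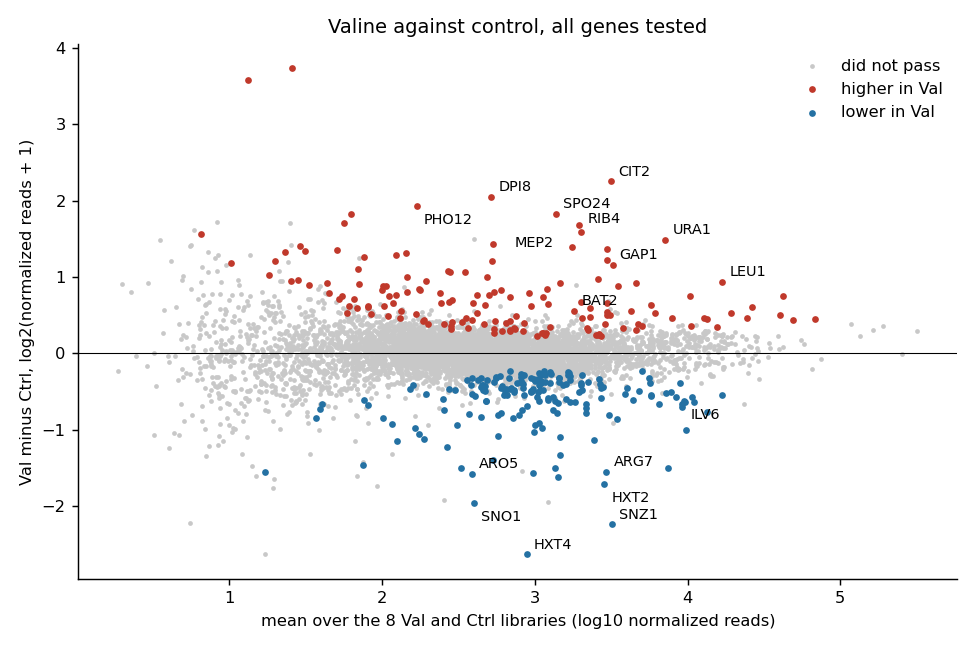
Log2 difference between Val and Ctrl for each of the 6103 genes tested (vertical axis) against the gene's mean over the 8 libraries (horizontal axis, log10 of normalized reads). Red points are the 153 genes higher in Val, blue points the 176 lower and grey points those that did not pass, and CIT2 at 2.25 and HXT4 at -2.63 are the outermost points with a name. Of the 2 red points higher up, both of low mean, 1 is MET28 at 3.73.

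In branched-chain amino acid synthesis, LEU1, OAC1 and BAT2 were higher in Val, while ILV6, ILV1, LEU9 and LEU4 were lower. Genes of leucine synthesis were thus found on both sides. Of 12 measured members 3 rose, 4 fell and 5 did not pass, with a median log2 difference of -0.22, against 0.002 over all genes. Among all genes 2.51% rose and 2.88% fell. LEU1 (YGL009C), the isopropylmalate isomerase, had 23926, 23118, 20072 and 21476 normalized reads in Val libraries A to D, against 11555, 12581, 10377 and 11704 in Ctrl libraries A to D. All Val libraries lay above all Ctrl libraries, by a log2 difference of 0.94 ± 0.14 (SE, limma adjusted p = 2.06e-05). OAC1 (YKL120W), the mitochondrial carrier that exports the precursor isopropylmalate, had 2998, 2858, 2252 and 2856 in Val and 1854, 1952, 1412 and 2075 in Ctrl (0.59 ± 0.14, limma adjusted p = 0.00532), and these groups did not overlap either. Next came BAT2 (YJR148W), the cytosolic aminotransferase that removes the amino group of valine, with 2259.6, 1997, 2457 and 1931 in Val and 1469, 1517, 1375 and 1493 in Ctrl (0.56 ± 0.13, limma adjusted p = 0.00666). It did not pass with letter C left out of every group (0.46, limma adjusted p = 0.0889), and its mitochondrial counterpart BAT1 stood at 0.06 ± 0.17 (limma adjusted p = 0.901).

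Among the 4 genes that fell, ILV6 (YCL009C), the valine-sensing regulatory subunit of acetolactate synthase, had 7799.8, 7671, 7411 and 6775 normalized reads in Val and 10299.8, 11319, 11583 and 12690.0 in Ctrl. Its log2 difference was -0.63 ± 0.12 (limma adjusted p = 0.000786), with no overlap of the groups. The catalytic subunit ILV2 stood at -0.08 ± 0.09 (limma adjusted p = 0.7), and the groups overlapped. ILV1, the threonine deaminase that opens the isoleucine branch, averaged 4883 ± 81.4 in Val and 6402 ± 267 in Ctrl (SD, n = 4 libraries each), a log2 difference of -0.39 (limma adjusted p = 0.0161) that did not pass without letter C (-0.35). LEU9, an isopropylmalate synthase that feeds LEU1, fell by 0.45 on the log2 scale (limma adjusted p = 0.00298). Its paralogue LEU4 averaged 7493 ± 314 in Val and 11696 ± 1759.6 in Ctrl (SD, n = 4 libraries each), a log2 difference of -0.63 ± 0.18 (limma adjusted p = 0.0275). That call held without Ctrl C (-0.73) and was lost without any single one of the other 7 libraries (-0.55 to -0.65). ILV5, the reductoisomerase, stood at -0.34 (limma adjusted p = 0.078, or limma adjusted p = 0.0287 with the letters as a replicate block). ILV3, the dihydroxyacid dehydratase, stood at -0.29 (limma adjusted p = 0.224) with no overlap of the groups and passed in the fit to Val and Ctrl alone (limma adjusted p = 0.0448). The regulator LEU3 stood at -0.16 (limma adjusted p = 0.365).

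**Figure D2:**
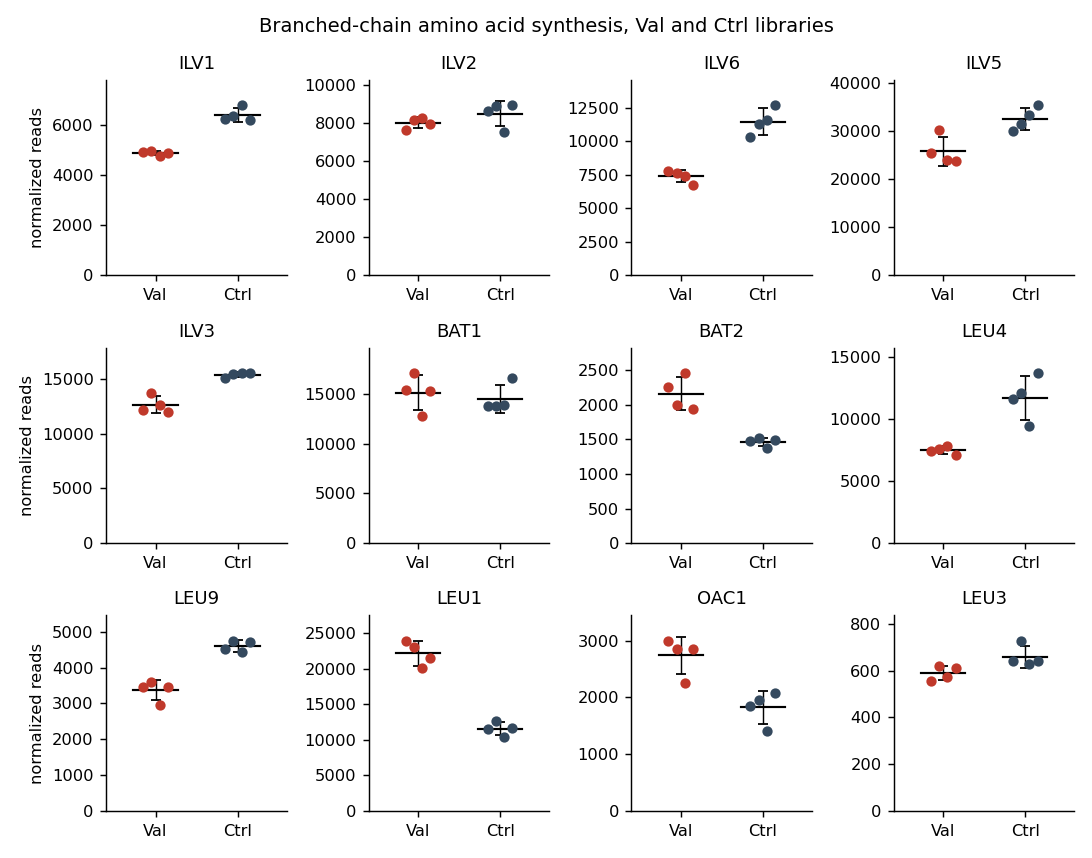
Normalized reads of the 12 measured genes of branched-chain amino acid synthesis in the 4 Val libraries (red, left) and the 4 Ctrl libraries (dark, right) of each panel, in the order A to D, with the mean as a line and the SD as bars. LEU1, at 20072 to 23926 in Val against 10377 to 12581 in Ctrl, is the member with the largest difference, and ILV6 shows the reverse order.

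The promoters of LEU1 and ILV6 are shown because these members moved in opposite directions. The letters are those of RefSeq's R64 assembly, 250 bases before to 50 after the annotated start of the gene, since the build behind the deposited values is not given in the sources used here. Capitals mark matches to TGACTC, the core recognized by Gcn4, to the Leu3 site, written CCGGGACCGG in LEU1 and searched with any base at its middle pair, to GTCAC, a site of the retrograde factors Rtg1 and Rtg3, and to GATAAG, a site of GATA factors, searched on both strands.
LEU1 (chrVII:478603-478902, reverse strand): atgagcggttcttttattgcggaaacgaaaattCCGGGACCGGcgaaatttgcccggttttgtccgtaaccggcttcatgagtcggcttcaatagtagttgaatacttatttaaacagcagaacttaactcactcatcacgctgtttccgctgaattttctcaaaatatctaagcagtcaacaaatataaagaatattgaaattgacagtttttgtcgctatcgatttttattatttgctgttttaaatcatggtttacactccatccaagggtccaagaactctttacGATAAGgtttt
ILV6 (chrIII:105499-105798, reverse strand): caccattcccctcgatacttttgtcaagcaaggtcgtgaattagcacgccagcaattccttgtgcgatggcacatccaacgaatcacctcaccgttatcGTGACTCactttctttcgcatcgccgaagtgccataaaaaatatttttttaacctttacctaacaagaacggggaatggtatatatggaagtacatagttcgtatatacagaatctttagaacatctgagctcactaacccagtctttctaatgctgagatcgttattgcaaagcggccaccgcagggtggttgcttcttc
LEU1 holds a Leu3 match at position -217 and a GATAAG match at 40, inside the coding sequence. ILV6 holds TGACTC at -150 and, on the other strand at -151, a GTCAC match that overlaps it. The Leu3 site was found in 8 of 6001 promoters (0.133%), among them LEU1 and BAT1 of the 12 list members. TGACTC was found in 479 of 6001 (7.98%), in 7 of the 12 list members (58.3%), in 17 of 151 promoters of genes that rose (11.3%) and in 39 of 173 of genes that fell (22.5%). GTCAC was found in 26.4% of all promoters and in 6 of the 12 members. These matches describe the letters of the windows and are no measure of binding.

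Among genes for the uptake of valine and its relatives, the general permease was the member that rose. Of 9 permeases and vacuolar transporters that carry branched-chain amino acids 1 rose and 0 fell (median 0.003), where 2.51% of all genes rose. GAP1 (YKR039W), the general amino acid permease, had 4441, 4268, 4839 and 4226 normalized reads in Val and 1915, 1663, 2232 and 2182 in Ctrl (1.16 ± 0.20, limma adjusted p = 0.000278), with every Val library above every Ctrl library. AGP1 (0.36), BAP3 (0.26), BAP2 (-0.15) and TAT1 (-0.14), which import valine and its relatives, did not pass, nor did the vacuolar transporters AVT1 (-0.04) and AVT4 (0.03). GNP1 (0.00) and AVT3 (-0.01) share reads with other gene models and are uncertain. Around the sensor of external amino acids, a list of 16 genes, 2 rose and 1 fell (median -0.04), against 2.51% and 2.88% of all genes. DIP5, a permease for acidic amino acids, averaged 2982 ± 450.4 in Val and 1003 ± 242 in Ctrl (SD, n = 4 libraries each, log2 difference 1.59 ± 0.29, limma adjusted p = 0.000469). PTR2, the peptide permease, had 357, 362, 375 and 357 in Val and 864, 677, 710 and 857 in Ctrl (-1.09 ± 0.15, limma adjusted p = 1.18e-05). The methionine permease MUP1 (0.54, limma adjusted p = 0.0384) passed without Ctrl D or Val D but not without any of the other 6 libraries (0.46 to 0.57), nor under equal totals (0.49).

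In the breakdown of amino acids to alcohols, the Ehrlich route, 1 of 22 genes, BAT2, rose, 2 fell and 19 did not pass (median 0.03), where 5.39% of all genes were called. ARO8, an aminotransferase acting on aromatic amino acids, fell by 0.50 on the log2 scale (limma adjusted p = 0.00715), a call lost without letter C (-0.45). SFA1, an alcohol dehydrogenase, stood at -0.32 (limma adjusted p = 0.0158) and did not pass without Val B (-0.28) or Ctrl D (-0.30). The decarboxylases ARO10 (0.32), PDC5 (0.22), THI3 (-0.11) and PDC6 (1.19, limma adjusted p = 0.205) did not pass, although PDC6 did in the fit to Val and Ctrl alone (limma adjusted p = 0.0226). PDC1 (0.00) has mostly fractional values and is uncertain, as is ATF2 (-0.25). None of the alcohol dehydrogenases ADH1 (0.38, limma adjusted p = 0.071), ADH2 (-0.14), ADH3 (0.19), ADH4 (-0.05), ADH5 (-0.58, limma adjusted p = 0.0745), ADH6 (0.18) and ADH7 (0.11) passed in this fit. ADH1 passed under equal totals, without Ctrl C and without letter C, and ADH5 under equal totals and in the fit to Val and Ctrl alone. PDR12, which exports weak acids such as isobutyrate, stood at 0.04 (limma adjusted p = 0.958) and its activator WAR1 at -0.08. ARO9 (0.18), ARO80 (0.01), ATF1 (0.00) and BAT1 did not pass either.

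Pantothenate and coenzyme A synthesis, a further branch from the keto acid of valine, has 14 genes, of which 2 rose and 0 fell (median 0.08). Among all genes 2.51% rose and 2.88% fell. CAB2, a coenzyme A synthesis enzyme, averaged 763 ± 28.9 in Val and 620 ± 28.8 in Ctrl (SD, n = 4 libraries each, log2 difference 0.30, limma adjusted p = 0.0096), which did not pass under equal totals (0.25) or without letter C (0.32). SPE3, the spermidine synthase, stood at 0.25 (limma adjusted p = 0.0311), lost under equal totals (0.20) and without Val A, Val C, Val D, Ctrl A or Ctrl D (0.22 to 0.26). The branch's own enzymes ECM31 (0.15), PAN5 (0.17) and PAN6 (0.04) did not pass, nor did FMS1 (0.26), SPE1 (-0.16), SPE2 (-0.01), SPE4 (0.18), CAB1 (-0.18), CAB3 (-0.08), CAB4 (0.12), CAB5 (0.02) and the transporter FEN2 (-0.18). FMS1 passed without Ctrl C (0.41).

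Against Ile, the other branched-chain amino acid of the series, Val differed in 8 of 6103 genes (0.131%), 7 higher (0.115%) and 1 lower (0.0164%). The doses behind the labels are not given for either. At an unadjusted p under 0.05 there were 261 (4.28%), and 2 of the 8 were at least 2-fold higher in Val (0.0328%). LEU1 had 23926, 23118, 20072 and 21476 normalized reads in Val, against 14855, 12206, 11820.2 and 7329 in Ile (0.98 ± 0.14, limma adjusted p = 8.74e-05). BAT2 had 2259.6, 1997, 2457 and 1931 in Val, against 1089, 1018, 1032 and 1171 in Ile (1.0 ± 0.13, limma adjusted p = 3.52e-05). In both genes each Val library lay above each Ile library, and the Ile mean of BAT2 (1077 ± 69.8) was itself below that of Ctrl (1464 ± 62.3, SD, n = 4 libraries each). QDR2, a multidrug exporter, averaged 2370.2 ± 254 in Val and 1446 ± 221 in Ile (SD, n = 4 libraries each, 0.72 ± 0.12, limma adjusted p = 0.00113). OAC1 was higher in Val by 0.74 ± 0.14 (limma adjusted p = 0.0059) and the iron-sulfur scaffold gene ISU2, uncertain for fractional values, by 0.86. Neither passed without Ile D (OAC1 0.57, ISU2 0.70). The near-identical acid phosphatase genes PHO11 (1.12 ± 0.20) and PHO12 (1.09 ± 0.21) may share reads, and PHO12 did not pass without Val B, Ile B or Ile C (1.02 to 1.05). PTR2 was lower in Val, with 357 to 375 against 468 to 746 in Ile (-0.74 ± 0.15, limma adjusted p = 0.0204), and passed only without Val C or Ile C among the 8 fits that each left out 1 library (-0.64 to -0.86). The count was 5 without Ile D, and 12 in the fit to Val and Ile alone.

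**Figure D3:**
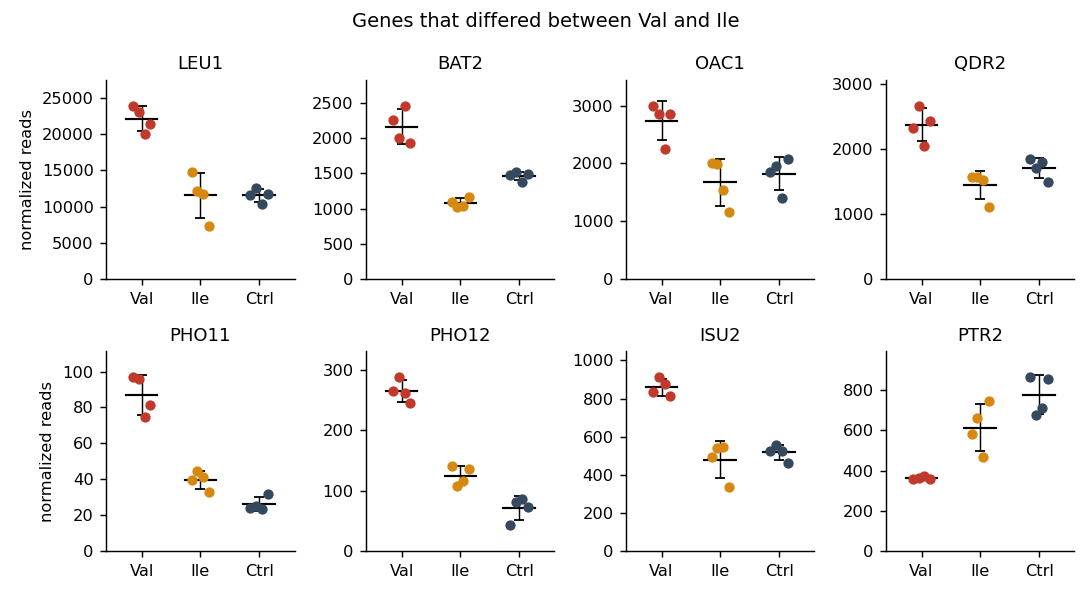
Normalized reads of the 8 genes that differed between Val and Ile in the libraries of Val (red, left), Ile (orange, middle) and Ctrl (dark, right), 4 points a group in the order A to D, with the mean as a line and the SD as bars. LEU1 and BAT2 in Val lie above both other groups, while LEU1 averaged 11553 in Ile and 11554 in Ctrl.

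Nitrogen catabolite repression keeps genes for poorer nitrogen sources silent until preferred ones run short. Of 34 measured members 9 rose, 0 fell and 25 did not pass, with a median of 0.26, where 2.51% of all genes rose. With the replicate block 11 rose and 1 fell, and under equal totals 8 rose and 1 fell. Without Ctrl C 10 rose and 1 fell, and without letter C 9 rose and 1 fell. Whichever of the 8 libraries was left out, 7 of the rises passed. MEP2 (YNL142W), the high-affinity ammonium permease, had 2402, 2678, 2458 and 2588 normalized reads in Val, against 726, 835, 1343 and 1036 in Ctrl (1.40 ± 0.20, limma adjusted p = 1.8e-05). All Val libraries were above all Ctrl libraries, of which C was the highest. The allantoin genes DAL1 (0.93 ± 0.20) and DAL2 (0.80 ± 0.11) and the urea permease DUR3 (0.77 ± 0.17) rose with limma adjusted p = 0.00319, 1.45e-05 and 0.00356. GDH1, which fixes ammonium into glutamate, averaged 31842 in Val and 20869.7 in Ctrl (0.61, limma adjusted p = 0.000546). The remaining rises were GLN1, the glutamine synthetase (0.47), UGA4, a permease for 4-aminobutyrate (0.53), GAP1, given above, and the activator GAT1 (0.74). GAT1 has mostly fractional values and is uncertain, and it did not pass with letter C left out of every group (0.77). The ammonium permease MEP1 (0.46, limma adjusted p = 0.0667) and the proline permease PUT4 (0.26, limma adjusted p = 0.681) did not pass. The promoter of MEP2 is shown because it had the largest log2 difference among the 9 rises, with capitals marking GATAAG on the other strand at -233.
MEP2 (chrXIV:357203-357502, forward strand): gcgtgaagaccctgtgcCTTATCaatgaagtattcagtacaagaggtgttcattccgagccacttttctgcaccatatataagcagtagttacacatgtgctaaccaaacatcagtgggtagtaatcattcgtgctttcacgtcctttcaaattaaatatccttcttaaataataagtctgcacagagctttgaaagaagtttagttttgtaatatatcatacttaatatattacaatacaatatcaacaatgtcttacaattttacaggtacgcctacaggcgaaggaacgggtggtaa
GATAAG was found in 14.7% of all promoters, in 30 of 151 of genes that rose (19.9%) and in 34 of 173 of genes that fell (19.7%).

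In pathways of other amino acids, 4 lists held falls and no rise. Of 13 aromatic synthesis genes 0 rose and 7 fell (median -0.44), and of 7 histidine genes 0 rose and 3 fell (median -0.36). Of 15 genes of arginine synthesis and breakdown 0 rose and 4 fell (median -0.19), and 5 had a positive difference. Of 10 lysine genes 0 rose and 2 fell (median -0.24). Over all genes 2.88% fell, and the median was 0.002. ARG7 (YMR062C), the mitochondrial ornithine acetyltransferase, had 1735, 1456, 1432 and 1316 normalized reads in Val, against 4679.5, 4728, 3244 and 4863 in Ctrl (-1.55 ± 0.18, limma adjusted p = 2.2e-07). Its groups did not overlap, and Ctrl C was the Ctrl library nearest to Val. The mitochondrial ornithine carrier ORT1 (-0.80) was lost without Ctrl B (-0.70). ARG1, the argininosuccinate synthetase (-0.54, limma adjusted p = 0.049), was lost without any single library other than Ctrl C (-0.47 to -0.58). In both, the groups overlapped at Ctrl C. Without Ctrl C 6 arginine genes fell.

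HIS4 (YCL030C), a histidine enzyme under Gcn4, had 6950.3, 6188, 7026 and 5222 normalized reads in Val, against 14567, 14399, 7967 and 15309 in Ctrl (-1.0 ± 0.22, limma adjusted p = 0.00284). Ctrl C again was far below the other Ctrl libraries, yet above all of Val. HIS5, an aminotransferase of that route (-0.79 ± 0.11, limma adjusted p = 1.45e-05), and HIS1, its first enzyme (-0.66 ± 0.11, limma adjusted p = 7.12e-05), fell as well. ARO3 averaged 2441 ± 192 in Val and 4463 ± 602 in Ctrl (SD, n = 4 libraries each, -0.86 ± 0.14, limma adjusted p = 7.12e-05), and ARO4, the second isozyme of the same entry step of aromatic synthesis, averaged 7033 ± 907 in Val and 11373 ± 464 in Ctrl (-0.70 ± 0.11, limma adjusted p = 9.02e-05). TRP2, of the tryptophan branch, fell by 0.44 (limma adjusted p = 0.000207) and TYR1, of the tyrosine branch, by 0.43 (limma adjusted p = 0.00079). ARO1 (-0.55, limma adjusted p = 0.0116) did not pass without Ctrl D (-0.51), and TRP4 (-0.62, limma adjusted p = 0.0209) did not pass without Ctrl A, B or D or Val C or D (-0.56 to -0.61). ARO8, given above, was the remaining fall of the aromatic list. LYS1 (-0.54) was lost without Ctrl D (-0.47) and LYS2 (-0.57) without Ctrl A, B or D or Val B (-0.53 to -0.56), whereas 4 lysine genes fell without Ctrl C.

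In the list of 21 threonine, serine, glycine and one-carbon enzymes 1 rose and 5 fell (median -0.10), against 2.51% and 2.88% of all genes. HOM3, the aspartate kinase at the entry to threonine and methionine, averaged 2191 ± 108 in Val and 3918 ± 834 in Ctrl (SD, n = 4 libraries each, -0.81 ± 0.17, limma adjusted p = 0.00167). HOM2, the next enzyme, fell by 0.66 (limma adjusted p = 5.27e-05). SER3, the phosphoglycerate dehydrogenase that opens serine synthesis, rose, with 5654, 7104, 5331 and 5956 in Val and 2901, 2833, 4529 and 2622 in Ctrl (0.93 ± 0.21, limma adjusted p = 0.00442). The threonine aldolase GLY1 (-0.51) passed without Val B alone and was lost without any of the other 7 libraries (-0.43 to -0.56). The glycine cleavage genes GCV1 (-0.46) and GCV2 (-0.49) were lost, GCV1 without Val A, Val D or Ctrl C (-0.40 to -0.44) and GCV2 without Val C (-0.42). With letter C left out of every group, 1 rose and 2 fell in this list.

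GCN4, the activator of many of these genes, stood at 11394 normalized reads in Val and 11197 in Ctrl (0.02 ± 0.08, limma adjusted p = 0.934), a level of messenger RNA for a factor known to be controlled at translation. Of 15 genes of Gcn4 and its translational control 0 rose and 1 fell (median 0.002), where 5.39% of all genes were called. That gene was PCL5, a cyclin that targets Gcn4 for breakdown and is itself switched on by Gcn4. It had 805, 738, 690.3 and 722 in Val, against 1872, 1584, 969 and 1556 in Ctrl (-0.98 ± 0.19, limma adjusted p = 0.000923), and the groups did not overlap.

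SNZ1 and SNO1, the gene pair for the synthase of vitamin B6, held the smallest adjusted p-values of all genes tested. SNZ1 (YMR096W) had 1233, 1134, 952 and 1124 normalized reads in Val, against 4596, 5266, 5977 and 5165 in Ctrl (-2.24 ± 0.17, limma adjusted p = 2.27e-11). SNO1 (YMR095C) had 193, 141, 152 and 166 in Val, against 585, 621, 696 and 633 in Ctrl (-1.96 ± 0.15, limma adjusted p = 2.27e-11). Neither gene's groups came near to overlapping, and here Ctrl C was the Ctrl library farthest from Val. Of the 10 genes in the list of vitamin B6 and the SNZ and SNO families 2 rose and 3 fell (median -0.21). The shares over all genes were 2.51% and 2.88%. TPN1, the vitamin B6 transporter, stood at -0.41 (limma adjusted p = 0.00926), lost without Val C (-0.36). The rises were SNZ2 (0.79) and SNZ3 (0.90), near-identical copies of low level that are uncertain, and SNZ2 was lost without Val A, Val C or any Ctrl library but C (0.69 to 0.80). The 16 thiamine genes gave 0 rises and 0 falls, a count near the 5.39% called over all genes. THI13 stood at 0.39 and THI12 at -0.38, also near-identical copies.

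The promoters of SNZ1 and SNO1 are shown since both genes fell together and are transcribed away from each other from a shared stretch, so that the windows overlap. Capitals mark TGACTC, or GAGTCA where the match is on the other strand, and in SNO1 also GTCAC.
SNZ1 (chrXIII:458158-458457, forward strand): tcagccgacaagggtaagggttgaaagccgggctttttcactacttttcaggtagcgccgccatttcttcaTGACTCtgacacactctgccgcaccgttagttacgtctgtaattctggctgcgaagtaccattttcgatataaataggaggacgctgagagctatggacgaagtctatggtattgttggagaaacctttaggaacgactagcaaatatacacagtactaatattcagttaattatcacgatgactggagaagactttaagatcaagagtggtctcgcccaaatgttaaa
SNO1 (chrXIII:457910-458209, reverse strand): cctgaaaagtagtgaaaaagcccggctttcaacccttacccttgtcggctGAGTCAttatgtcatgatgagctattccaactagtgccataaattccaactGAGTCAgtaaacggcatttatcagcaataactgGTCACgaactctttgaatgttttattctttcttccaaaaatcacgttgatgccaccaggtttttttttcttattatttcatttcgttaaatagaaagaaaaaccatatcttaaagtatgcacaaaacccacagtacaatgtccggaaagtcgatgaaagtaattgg
SNZ1 has TGACTC at -179, and SNO1 has matches on the other strand at -200 and -149 and GTCAC at -116. The TGACTC matches of each gene lie in the shared stretch, but outside or across the edge of the other gene's window. Their number per gene thus depends on the 250 bases taken before the start.

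CIT2 (YCR005C), the peroxisomal citrate synthase and the classical target of the retrograde response, by which mitochondrial state and glutamate supply set nuclear genes, rose more than any other named gene with whole reads. It had 6956, 5074, 4387 and 4268 normalized reads in Val, against 689, 763, 1927 and 1268 in Ctrl (2.25 ± 0.32, limma adjusted p = 1.21e-05). The libraries of both groups varied widely, but the lowest Val library lay above the highest Ctrl library, C. Of 23 genes of the response 5 rose, 2 fell and 16 did not pass (median 0.22). Among all genes 2.51% rose and 2.88% fell. MDH2, the cytosolic malate dehydrogenase, averaged 3408 ± 506 in Val and 1757 ± 469 in Ctrl (SD, n = 4 libraries each, 0.98 ± 0.20, limma adjusted p = 0.00115). PDH1, of propionate metabolism, stood at 0.95 (limma adjusted p = 0.0125) but was lost without Val C (0.88) or Ctrl D (0.83). The oxodicarboxylate carrier ODC1 (0.43, limma adjusted p = 0.00861) was lost without Ctrl A (0.38), and DLD3 (0.64, limma adjusted p = 0.0433) without any library but Val B (0.54 to 0.67), and under equal totals. On the lower side were ODC2, the second carrier, with 1746, 1706, 1496 and 1608 in Val and 2662, 2728, 2509 and 2818 in Ctrl (-0.71 ± 0.13, limma adjusted p = 0.000437), and the pyruvate carboxylase PYC2 (-0.57 ± 0.11, limma adjusted p = 0.000646).

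Other members of that list did not pass, among them CIT1 (0.44), ACO1 (0.37), IDH1 (0.22) and PYC1 (0.58) of the oxoglutarate branch, of which CIT1 and PYC1 passed in the fit to Val and Ctrl alone. IDH2 (0.28) and MAE1 (0.20) are uncertain for fractional values. The regulators RTG1 (0.19), RTG2 (-0.09), RTG3 (-0.26), MKS1 (0.00), GRR1 (-0.13), BMH1 (0.25), BMH2 (0.01) and LST8 (-0.03) did not pass, nor did CIT3 (0.03) and ATO3 (0.31), which passed without letter C (0.46). The promoter of CIT2 is given for its GTCAC match on the other strand at -196, and capitals also mark GATAAG on the other strand at 11.
CIT2 (chrIII:122279-122578, reverse strand): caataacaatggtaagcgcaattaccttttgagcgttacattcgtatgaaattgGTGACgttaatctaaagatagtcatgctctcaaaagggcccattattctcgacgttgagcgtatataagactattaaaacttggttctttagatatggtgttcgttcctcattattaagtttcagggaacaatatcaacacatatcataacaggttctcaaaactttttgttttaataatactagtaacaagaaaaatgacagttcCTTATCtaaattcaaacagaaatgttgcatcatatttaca

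In the 49 genes of the citric acid cycle and respiration 1 rose and 0 fell (median -0.02), where 5.39% of all genes were called. That gene was LSC2, a subunit of succinyl-CoA ligase, at 1537 ± 284 in Val and 848 ± 82.3 in Ctrl (SD, n = 4 libraries each, 0.85 ± 0.17, limma adjusted p = 0.00115). HAP4, the limiting subunit of the activator of respiratory genes, had 409, 565, 516 and 418 in Val, against 1846, 1823, 880 and 1277 in Ctrl (-1.56 ± 0.33, limma adjusted p = 0.00185). Of 22 genes of gluconeogenesis and acetate use 2 rose and 1 fell (median 0.14), against 2.51% and 2.88% of all genes. The rises were MDH2 and ADR1, an activator of genes used without glucose, at 730.1 ± 104 in Val and 317 ± 49.6 in Ctrl (SD, n = 4 libraries each, 1.21 ± 0.19, limma adjusted p = 7.37e-05). The fall was ICL1, the isocitrate lyase (-0.54, limma adjusted p = 0.00252), lost without letter C (-0.47).

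Of 24 hexose transporters, glucose sensors and repressors 0 rose and 5 fell (median -0.30), where 2.88% of all genes fell. HXT4 (YHR092C), a transporter of higher affinity, had 206, 305, 227 and 223 normalized reads in Val, against 2249.9, 1439.6, 1289 and 1143 in Ctrl (-2.63 ± 0.38, limma adjusted p = 1.62e-05). HXT2 (YMR011W), of the same kind, had 1094, 1468, 1491 and 1205 in Val, against 5474, 4258, 4603 and 3059.8 in Ctrl (-1.71 ± 0.36, limma adjusted p = 0.00204). The groups were well apart in both genes. The low-affinity transporter HXT1 averaged 9934 ± 1112 in Val and 16919.6 ± 1214 in Ctrl (SD, n = 4 libraries each, -0.77 ± 0.15, limma adjusted p = 0.00115), while HXT3 stood at -0.66 (limma adjusted p = 0.221). The repressors MTH1 (-1.22, limma adjusted p = 0.017) and MIG2 (-1.14, limma adjusted p = 0.0389) were less secure. MTH1 was lost without Val A (-1.10) or Ctrl A (-1.11), and MIG2 held only without Val B or Ctrl C among the fits that left out 1 library (-0.98 to -1.18 where lost). PFK27, a kinase that makes the activator of glycolysis, had 589, 910.4, 633 and 665 in Val, against 2006, 2279, 1452 and 2223 in Ctrl (-1.51 ± 0.23, limma adjusted p = 4.38e-05).

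Of 23 genes of glycolysis and fermentation 4 rose and 0 fell (median 0.23), where 2.51% of all genes rose. TDH2, a glyceraldehyde phosphate dehydrogenase similar to its paralogues, had 53503, 58452, 51372 and 46639 normalized reads in Val, against 27664, 27644, 42038 and 29055 in Ctrl (0.75 ± 0.13, limma adjusted p = 0.000325). TPI1, the triose phosphate isomerase, stood at 0.50 (limma adjusted p = 0.0158), lost without Val A (0.45) or Ctrl D (0.44). PGK1 (0.45) and GPM1 (0.43) have mostly fractional values and are uncertain, and PGK1 was lost without Val C (0.37). The count of rises depended on the libraries of letter C, with 9 without Ctrl C and 7 with letter C left out of every group.

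Sulfur assimilation and methionine genes formed the longest set of rises among the lists. Of 35 measured members 14 rose, 1 fell and 20 did not pass, with a median of 0.39. The shares over all genes were 2.51% rising and 2.88% falling. SAM2 (YDR502C), an S-adenosylmethionine synthetase, had 3755, 4134, 4249 and 4393 normalized reads in Val, against 1588, 1589.5, 2484 and 1568 in Ctrl (1.22 ± 0.13, limma adjusted p = 8.5e-08). Its paralogue SAM1 stood at 0.29 (limma adjusted p = 0.351). MHT1, which makes methionine from homocysteine and S-methylmethionine, had 77.1, 74.2, 81.5 and 58 in Val, against 22.3, 30.8, 35.8 and 24.1 in Ctrl (1.35 ± 0.26, limma adjusted p = 0.000786). Along sulfate assimilation, MET3 (1.0, limma adjusted p = 0.00044), MET14 (1.08, limma adjusted p = 0.00392), MET16 (0.77), MET1 (0.70) and MET5 (0.49) rose, and so did the methionine synthase MET6 (0.75) and CYS3 of cysteine synthesis (0.53). In MET14 the Ctrl library C, at 317, lay far above the other Ctrl libraries at 122 to 162 and below the Val libraries at 342 to 399. The permease genes SEO1 (1.41 ± 0.29) and MMP1 (0.80 ± 0.14) and MUP1, given above, belong to the same rises. STR3, a cystathionine lyase (1.26, limma adjusted p = 0.0188), was lost without Val A or B or Ctrl A, B or D (1.12 to 1.23). MET28, a cofactor of sulfur gene activation, had the largest difference of any named gene (3.73 ± 0.62), but its values are mostly fractional and Ctrl lay at 0.0165 to 12.2 normalized reads, so it is uncertain. SAM4, a homocysteine methyltransferase, fell by 0.51 (limma adjusted p = 0.000735).

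Of 32 measured phosphate genes 10 rose and 0 fell, with a median of 0.18, where 2.51% of all genes rose. Against the mean of the 8 other amino acid groups, 0 of them were higher in Val and 9 lower (median -0.19). The PHO84 mean in Val, 4208, had rank 6 from the top among the 10 groups, with the glycine group highest at 31116. PHO84 (YML123C), the high-affinity phosphate transporter, had 3634, 4578, 4171 and 4448 normalized reads in Val, against 1003, 1616, 1784 and 2451 in Ctrl (1.36 ± 0.26, limma adjusted p = 0.000613). PHO12 (YHR215W), a secreted acid phosphatase, had 266, 288, 262 and 245 in Val, against 43.0, 81.4, 86.2 and 73.5 in Ctrl (1.93 ± 0.21, limma adjusted p = 1.32e-07), and PHO11, its near-identical copy, stood at 1.71 ± 0.20. SPL2, an inhibitor of low-affinity phosphate uptake, had 90.6, 102, 99.0 and 99.6 in Val, against 22.3, 21.8, 37.5 and 28.5 in Ctrl (1.82 ± 0.38, limma adjusted p = 0.00172). These groups did not overlap. VTC1 (0.65), VTC3 (0.80) and VTC4 (0.48) of the polyphosphate polymerase rose, as did PHO88 (0.31). The transporter PHO89 (1.32, limma adjusted p = 0.0209) was lost without Val B, Val D, Ctrl A or Ctrl B (0.99 to 1.22), and the phosphatase PHO5 (0.80, limma adjusted p = 0.00926) without Val B (0.69) or Ctrl A (0.71).

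Of 29 genes of iron and copper uptake and sparing 0 rose and 5 fell (median -0.21), where 2.88% of all genes fell. ENB1, a siderophore transporter, averaged 1009.6 ± 89.3 normalized reads in Val and 1765 ± 355 in Ctrl (SD, n = 4 libraries each, -0.79 ± 0.14, limma adjusted p = 0.000407). CTH1, which acts in messenger RNA breakdown, stood at -0.54 (limma adjusted p = 0.00115) and the iron regulator AFT2 at -0.49 (limma adjusted p = 0.00591). ARN1, a second siderophore transporter (-0.62, limma adjusted p = 0.0304), held only without Val B or Ctrl A (-0.53 to -0.61 where lost). FRE6, a vacuolar reductase (-0.47, limma adjusted p = 0.0233), was lost without Val A, Val C, Ctrl C or Ctrl D (-0.40 to -0.45). Without Ctrl C the list gave 3 falls, and 3 with letter C left out of every group.

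**Figure D4:**
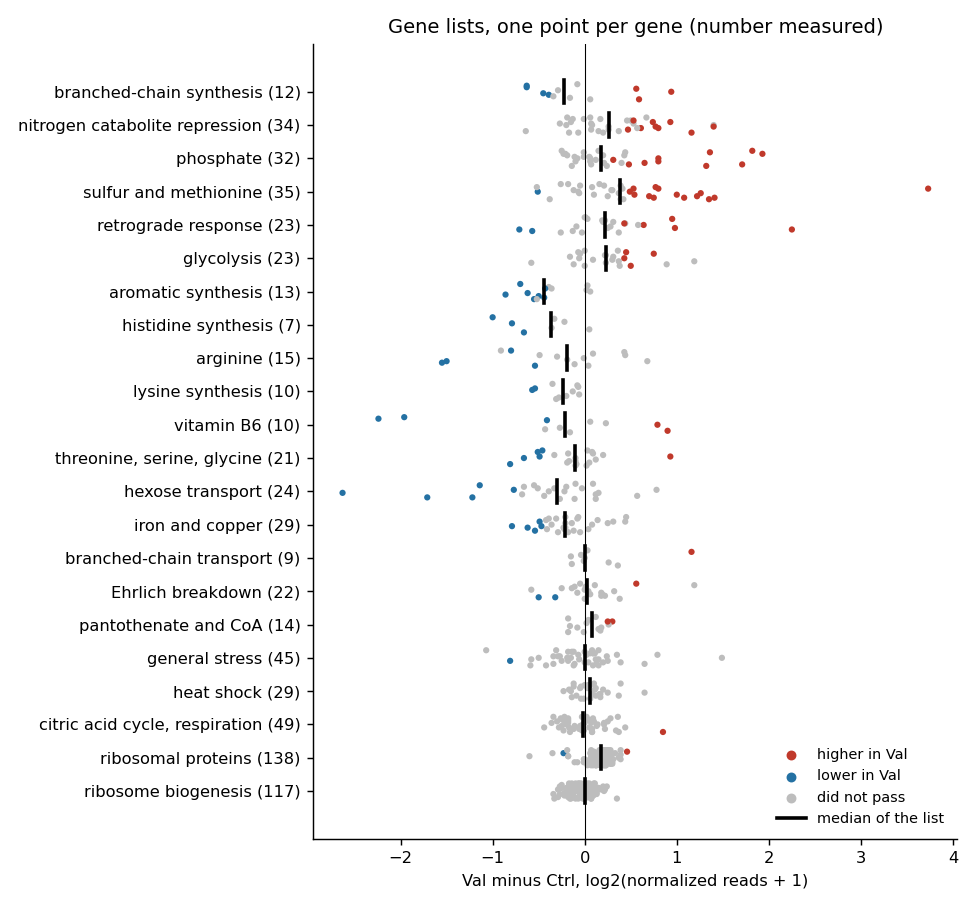
Log2 difference between Val and Ctrl (horizontal axis) for each gene of 22 of the lists, with a gene's point red where it was higher in Val, blue where lower and grey where it did not pass, and a black bar at the median of the list. The aromatic list has its bar at -0.44 and the sulfur list at 0.39, while the ribosome biogenesis list, at 0.00, holds no coloured point.

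Few genes of the growth and stress lists were called, where 5.39% of all genes were. In the shorter of these lists, a count of 0 is near that share. Of 117 ribosome biogenesis factors 0 rose and 0 fell (median -0.002), of 67 mitochondrial ribosomal proteins 0 and 0 (median 0.07), of 29 heat shock genes 0 and 0 (median 0.06) and of 19 cytosolic aminoacyl-tRNA synthetases 0 and 0 (median -0.06). VAS1, which charges the transfer RNA for valine, stood at -0.27 (limma adjusted p = 0.149), and KRS1 at -0.29 (limma adjusted p = 0.0564), which passed with the replicate block (limma adjusted p = 0.0442). Equal totals brought 4 falls to this last list, VAS1 and KRS1 among them. Among 138 cytosolic ribosomal proteins 1 rose and 1 fell, and the median was 0.18 (0.13 under equal totals). Small positive differences prevailed there, with 128 genes above 0 and 10 below, against 3080 and 3023 over all genes. Compared with the mean of the 8 other amino acid groups, 23 of them were higher in Val and 0 lower. RPL8A stood at 0.46 (limma adjusted p = 0.00644), and RPL9B (-0.23) was lost without any single library but Val C and Ctrl C. In the general stress list of 45 genes 0 rose and 1 fell (median 0.00), the stress activator MSN4, at 418 ± 55.8 in Val and 733 ± 79.7 in Ctrl (SD, n = 4 libraries each, -0.81 ± 0.16, limma adjusted p = 0.000782). HSP26 (0.65), CUR1 (0.39), FAF1 (0.35), UTP6 (-0.34) and MRPS8 (0.39) led the lists without calls, and RSM19 (0.64) passed with the replicate block alone among the settings tried.

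For the lists of this paragraph, each short, a count of 0 to 2 calls is near the 5.39% called over all genes. Of 7 genes specific to mating type a 0 rose and 0 fell (median 0.19), with ASG7 at 0.41 and AGA2 at 0.40. In ergosterol synthesis, with 28 genes, 2 rose and 0 fell (median -0.002). ERG20 (0.33, limma adjusted p = 0.00739) was lost without Val C (0.29), and ERG27, uncertain for fractional values, was lost without Val A, B or C or Ctrl A, B or D (0.19 to 0.24) and under equal totals (0.17). Purine synthesis gave 1 fall among 20 (median -0.05), ADE12 (-0.33), lost without Val C (-0.28). Of 13 cell wall mannoproteins 2 rose and 0 fell (median -0.15). CWP1 averaged 783 ± 273 in Val and 282 ± 44.7 in Ctrl (SD, n = 4 libraries each, 1.43 ± 0.37, limma adjusted p = 0.0168) but was lost without Val C (1.21), and CWP2 (0.52) was lost without Val A, B or C or Ctrl B (0.46 to 0.52). Of 18 genes of drug and weak acid export 1 rose and 1 fell (median -0.10). QDR2 stood at 0.47 (limma adjusted p = 0.0125), lost without Val B (0.41) or Ctrl D (0.40), and TPO1, a polyamine exporter, at -0.60 (limma adjusted p = 0.025), lost without Val A, Val C, Ctrl A, Ctrl C or Ctrl D (-0.48 to -0.59).

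Other large changes were seen in genes that belong to no list above. DPI8 had 994, 727, 1107 and 527 normalized reads in Val, against 165, 154, 294 and 188 in Ctrl (2.05 ± 0.33, limma adjusted p = 7.12e-05). SPO24 averaged 2151 ± 493 in Val and 609 ± 177 in Ctrl (SD, n = 4 libraries each, 1.83 ± 0.34, limma adjusted p = 0.00046). RIB4 (YOL143C), the lumazine synthase of riboflavin synthesis, had 2828, 2812, 3273 and 2856 in Val, against 907, 819.5, 1296 and 734 in Ctrl (1.68 ± 0.16, limma adjusted p = 3.56e-09). The dihydroorotate dehydrogenase gene URA1 (YKL216W), of pyrimidine synthesis, had 11960.4, 10657, 8818 and 10365 in Val, against 3549, 3266, 5638 and 2864 in Ctrl (1.49 ± 0.19, limma adjusted p = 2.71e-06). In all 4 genes the groups were apart. Among falls, STP4 averaged 705 ± 240.4 in Val and 2108 ± 360.0 in Ctrl (SD, n = 4 libraries each, -1.62 ± 0.37, limma adjusted p = 0.00532). ARO5 (YGL117W) had 189.7, 174, 178 and 191 in Val, against 700.5, 689, 274 and 681 in Ctrl (-1.58 ± 0.29, limma adjusted p = 0.000394), so that Ctrl C stood close to Val. YOR338W (-1.50 ± 0.37) and YLR297W (-1.46 ± 0.32) completed the falls.

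Relative to the mean over the 8 remaining amino acids, Val differed in 396 of 6103 genes (6.49%), with 145 higher (2.38%) and 251 lower (4.11%), or 74 and 483 under equal totals. At least 2-fold differences numbered 5 upward (0.0819%) and 23 downward (0.377%). This comparison uses no Ctrl library but the same Val libraries. Its count was 211 without Val A, 218 without Val B, 233 without Val C, 255 without Val D, and 247 with letter C left out of every group, and 613 with the replicate block. SNZ1 was lower than the other groups by a log2 difference of -1.81 ± 0.13 (limma adjusted p = 1.57e-12), and SNO1 by -1.68 ± 0.11 (limma adjusted p = 4.52e-13). Over the 10 groups the SNZ1 level in Val, 1111 ± 116, was the ninth from the top, next to Ile at 1228 ± 241 and above the tryptophan group at 604 ± 56.3 (SD, n = 4 libraries each), and the Val and Ile libraries overlapped. ARO9, an aminotransferase that aromatic amino acids induce, was -2.66 ± 0.23 from the others, at 55.5 in Val and a mean of 3780.1 over them. The log2 difference compares averages of log2 values, while 3780.1 is an average of reads, so these are unlike measures. The mean of ARO9 was 45.8 in Ctrl and 43.65 in Ile, and Val differed from neither (limma adjusted p = 0.811 and 0.985). ARO5 was -1.80 ± 0.21 from the others. FMP23 stood at -1.95 ± 0.24, and RME3, uncertain for fractional values, at -2.0, lost without Val A (-1.26) or Val C.

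LEU1 was higher in Val than in the other 8 by 1.0 ± 0.10 (limma adjusted p = 1.84e-08). Its Val mean, 22148 ± 1719, was second to the phenylalanine group at 46750.5 ± 5442 and overlapped that of the methionine group at 21457 ± 1271, with the cysteine group lowest at 2784 ± 238 (SD, n = 4 libraries each). BAT2 was lower than the mean of the other 8 (-0.52, limma adjusted p = 0.000507) although higher than in Ctrl. Its mean was 2161 ± 243 in Val, against 13361 ± 2034 in the alanine group, the highest. Val had rank 6 from the top among the 10 groups, above cysteine (2001), threonine (1584.5) and Ile (1077). MEP2 had its highest mean in Val (2531 ± 125), next to Ile (2222 ± 353), whose libraries overlapped those of Val, and was 1.01 ± 0.15 above the other 8 (limma adjusted p = 2.59e-05). ARG7 had its lowest mean in Val, 1484 ± 178, with Ile next at 1848 ± 119 (SD, n = 4 libraries each). Those libraries overlapped as well, and Val stood -1.08 from the other 8 (limma adjusted p = 6.58e-07). CIT2 was second to the alanine group in its mean, 5171 against 5288, was lowest in Ctrl, and did not differ from the other 8 at the threshold (0.68, limma adjusted p = 0.0839). PDR12 (1.01 ± 0.19), SER3 (0.98 ± 0.16), DFP3 (0.94 ± 0.19) and YMR084W (1.09 ± 0.27) were higher in Val, the last of them not without Val A (0.95) or Val B (0.99). Among these, SER3 also rose against Ctrl, while PDR12, DFP3 and YMR084W did not pass there in the fit of all 40 libraries. PDR12 averaged 2591 in Val, 2506 in Ctrl and 1361 over the other 8.

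**Figure D5:**
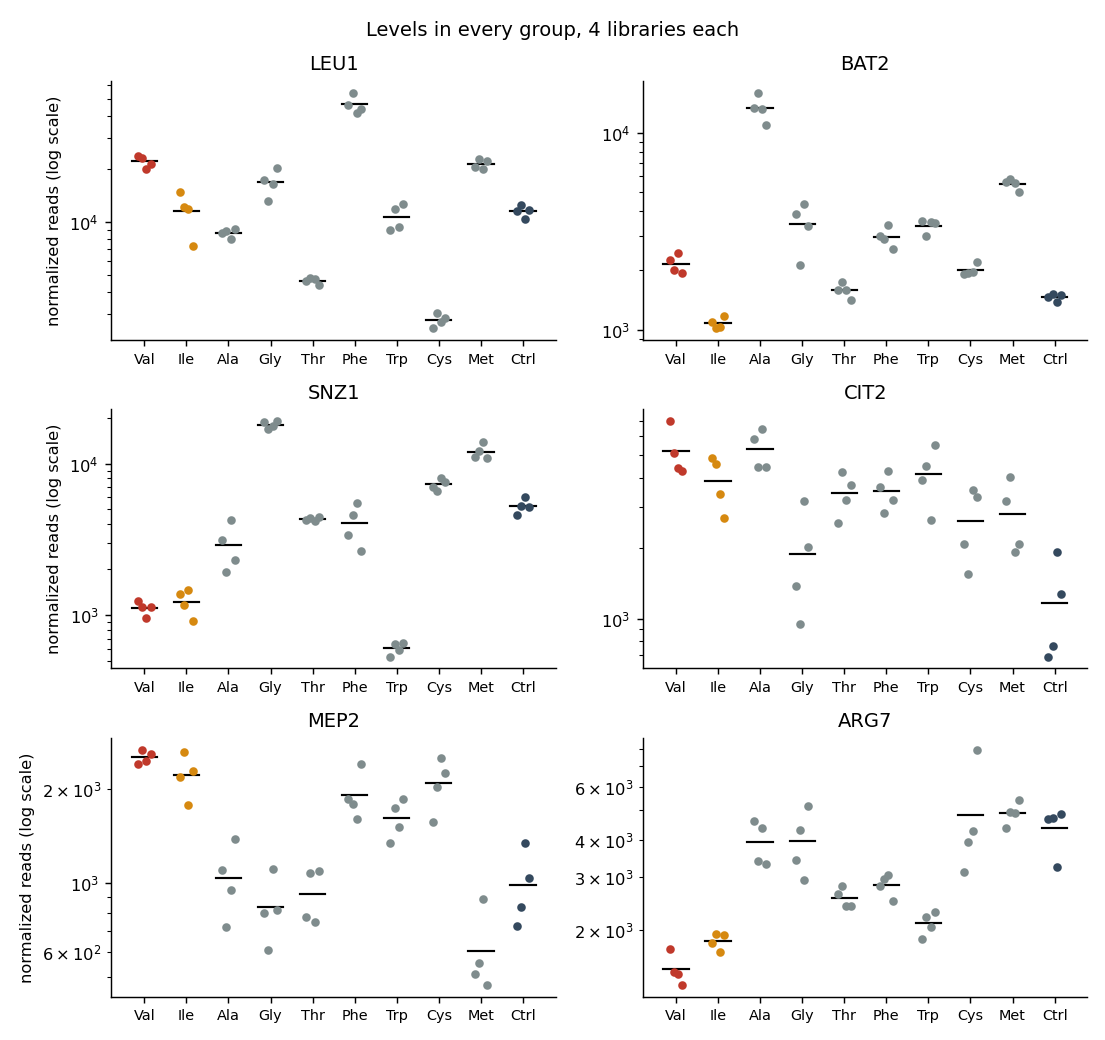
Normalized reads on a log scale of 6 genes in each of the 10 groups, with 4 libraries as points and their mean as a line, from Val (red) and Ile (orange) at the left through the other amino acids (grey) to Ctrl (dark) at the right. SNZ1 and ARG7 lie low and MEP2 lies high in both Val and Ile, while LEU1 is at 22148 in Val and 11553 in Ile, and CIT2 is lowest in Ctrl.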

How the data were processed

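Normalized read counts of 6462 genes in 40 libraries, as the authors deposited them, were used as a signal with no further normalization. STAR 2.7.8a and Partek are named in the submitters' processing notes, with no role. Genome build, annotation, strand setting and scaling: not given in the sources used here. Low values of a library are multiples of 1 step, from which depth was estimated. Of the values checked, 88.8% to 90.9% per library were whole reads (tolerance 0.1 read), and genes with mostly fractional values are called uncertain. In 4 lines all values are empty, and 187 symbols came from RefSeq's R64 annotation, which holds 5851 of the names.

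Genes with a mean of at least 5 over all libraries (6103) were put on the scale log2(value + 1) and fitted in R 4.3.3 by limma 3.58.1, with p-values adjusted over all of them. The steps were tested on simulated data. On this scale, folds of low genes come out too small. Alternatives were pseudocounts of 0.25 and 4, no filter, equal library totals, median of ratios, a replicate block on the batch letters, fits to 2 groups, and each library left out. Named genes were the 12 largest called changes each way among genes with a mean of at least 20 over the 8 libraries and the same sign in all 4 letters, all members of 5 lists close to valine, up to 6 called members of every other list, and the 6 largest differences each way from Ile and from the other 8. A gene that the rule names is not reported here. The members and lists were chosen with earlier results of these data known. The labels call the letters batches, and same-lettered Val and Ctrl libraries deviated from their group means with r = 0.0666 for A, 0.0437 for B, 0.285 for C and 0.164 for D. Pairs of unlike letters ran from -0.204 to 0.114. Val A with Ctrl B (0.114) and Val B with Ctrl D (0.0855) exceeded the same-lettered values of A and B.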

Additional observations from a re-analysis of the deposited data

Results flagged for a closer look

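Among the 103 named genes called between Val and Ctrl, both groups were examined for a library far from the other 3 by Dixon's criterion, and 23 of 206 groups had one, 6 in Val and 17 in Ctrl. Chance gives about 1 in 20 for independent groups. These groups are the same 8 libraries read through many called genes, so that rate is no test here. Values are normalized reads, each followed by the range of the other 3 libraries of its group.

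Library Ctrl C stood apart in 13 genes. It was low in ARG1 (14498.5 against 21413 to 22768), ARG7 (3244.2 against 4679.5 to 4863.4), HIS4 (7966.6 against 14399.3 to 15308.8), ARO5 (274.5 against 681.3 to 700.5), STP4 (1569.0 against 2260.2 to 2312.3) and HXT1 (15108.5 against 17382.3 to 17681.9). It was high in SAM2 (2484.1 against 1567.7 to 1589.5), SER3 (4529.4 against 2622 to 2901.1), MDH2 (2455.9 against 1455.9 to 1578.7), TDH2 (42037.9 against 27643.8 to 29055.3), RPL8A (12436.2 against 10150 to 10515.6) and ERG20 (3724.0 against 3171.7 to 3228). PGK1, whose values are mostly fractional, was also high there (64239.9 against 55015.9 to 55511.7). In each of these 13 genes the deviation of Ctrl C was towards the Val libraries.

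Other Ctrl libraries stood apart in CWP2 (B, 13726.6 against 16462.9 to 16686.4), TPO1 (B, 1734.3 against 1970.9 to 2003.1), PDH1 (D, 100.9 against 139.5 to 146.8) and PHO11 (D, 31.82 against 23.46 to 24.8). In Val, library C stood apart in CWP1 (1189.0 against 602.2 to 694), RIB4 (3272.6 against 2811.5 to 2856.4), ERG20 (4599.9 against 4004.4 to 4076.2), PDH1 (297.1 against 239.9 to 247.4) and GAT1 (1441.3 against 1388.9 to 1397.9), and library A in MET14 (399.0 against 342.2 to 350.4).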

How the results depend on the processing

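The 329 genes called between Val and Ctrl became 499 with the replicate block, 496 in a fit of the Val and Ctrl libraries alone, and 207 to 352 when 1 library was left out. Against Ile, the count of 8 ran between 5 and 9 when 1 library was left out, and the fit to the Val and Ile libraries only gave 12. Against the mean of the other 8, the 396 genes became 613 with the replicate block and 211 to 444 when 1 library was left out, and 247 with letter C left out of every group, a setting chosen after seeing the data. The cause was not tested. No named gene that passed turned its direction under any setting tried. Both other pseudocounts left all 178 named genes on the same side of the threshold (the median of ratios gave the same counts as the deposited scale throughout and tests nothing further), no filter moved 1, equal totals 10, the replicate block 3 and the fit to 2 groups 10. The paired analysis added ILV5, KRS1 and RSM19 and ended no call among the named genes. What depth limits was not tested.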

Other observations

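Some genes of related routes were followed further, on lists chosen after their values were seen, so the counts are a description. Beside these counts stand shares of 2.51% rising and 2.88% falling over all genes. In the kynurenine route from tryptophan to NAD 4 of 7 genes rose and 0 fell (median log2 difference 0.34, against 0.002 over all genes). BNA2, its first enzyme, averaged 175 normalized reads in Val and 72.4 in Ctrl (1.28 ± 0.14, SE, limma adjusted p = 8.96e-08). BNA4, the kynurenine monooxygenase, stood at 0.46 (limma adjusted p = 0.00115) and BNA6 at 0.34 (limma adjusted p = 0.0229), while BNA5 (0.62) has mostly fractional values and is uncertain.

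Of 8 pyrimidine synthesis genes 2 rose and 0 fell (median 0.17). Beside URA1, URA4, the dihydroorotase, averaged 4524.5 in Val and 2456 in Ctrl (0.88 ± 0.15, limma adjusted p = 0.000144). Of 6 riboflavin genes 1 rose and 1 fell (median -0.19). Those were RIB4 (1.68) and the riboflavin synthase RIB5, at 674 in Val and 1096 in Ctrl (-0.68 ± 0.18, limma adjusted p = 0.0162).

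Of 30 iron-sulfur assembly genes and users 5 rose and 0 fell (median 0.07). BIO2, the biotin synthase, averaged 774 in Val and 433 in Ctrl (0.84 ± 0.12, limma adjusted p = 1.76e-05). GRX4 (0.77 ± 0.11, limma adjusted p = 1.62e-05) and GRX3 (0.39, limma adjusted p = 0.0345), glutaredoxins that signal iron supply, the chaperone JAC1 (0.47, limma adjusted p = 0.00802) and ISU2 (0.73), which is uncertain for fractional values, were the others.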
